A study of Rattus norvegicus and Mus musculus with 74 samples.

Results

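H3K9me3, trimethylation of lysine 9 on histone H3, was measured by ChIP-seq in brain cortex of rats exposed to valproate (VPA) before birth, and libraries from TAK-418-treated rats were compared with libraries from vehicle-treated rats. The regions described are those of the deposited rat table that carried a called H3K9me3 interval in 3 or more of the 9 H3K9me3 libraries, whatever their group. This held for 26084 of 72824 merged regions on rat build rn5. An interval in at least 1 library was present at 42082 regions. The threshold left out 5653 regions with exactly 2 intervals and kept 4147 with exactly 3. An interval was called in all 9 libraries at 5000 regions. The median length was 5599 bp and the longest region spanned 339199 bp. No gene was listed for 17146 regions (65.7%), 3790 carried a listed promoter and 1592 (6.10%) held at least 1 CpG island.

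The study profiled 4 histone marks in rat and mouse cortex. All rats used here were Sprague-Dawley, and 3 groups of 3 H3K9me3 libraries entered the fit. Controls were labelled healthy and had been given vehicle; both other groups carried the label of a prenatal VPA injection and had been given vehicle or TAK-418. Age, sex, dose and animal numbers were not given in the sources used here. The labels do not tie the libraries to separate animals, and every p-value therefore rests on a spread among libraries that may be technical. Cortex is a mixture of cell types, and a change in every cell cannot be told apart from a change in the share of cells that carry the mark.

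H3K9me3 is deposited by the SUV39H and SETDB1 enzymes and bound by HP1 proteins. It keeps repeats, clustered gene families and alleles of some imprinted genes inactive. VPA inhibits histone deacetylases, and exposure in the womb is used in rodents as a model of autism-like behaviour. TAK-418 inhibits LSD1 (gene Kdm1a), a demethylase that removes methyl groups from mono- and dimethylated H3K4 and not from trimethylated H3K9.

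To show how CpG content differs among marked genes, the 250 bases before the start are printed for 4 genes that a tested region lists. Magel2 and Mest are imprinted genes, Dazl is a germline gene and Olr1433 an olfactory receptor gene. The sequences are RefSeq's, on build GRCr8, matched by symbol, all on the plus strand and from chr1:125291783-125292032, chr4:60321564-60321813, chr9:18193113-18193362 and chr10:43544815-43545064 in that order. Capitals mark each CG, the dinucleotide that CpG islands are rich in.
Magel2: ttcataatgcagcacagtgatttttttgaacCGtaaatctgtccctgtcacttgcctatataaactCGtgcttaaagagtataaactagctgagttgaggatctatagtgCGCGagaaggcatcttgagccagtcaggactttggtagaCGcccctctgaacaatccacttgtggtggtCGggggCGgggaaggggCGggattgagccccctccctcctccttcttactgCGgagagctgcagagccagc
Mest: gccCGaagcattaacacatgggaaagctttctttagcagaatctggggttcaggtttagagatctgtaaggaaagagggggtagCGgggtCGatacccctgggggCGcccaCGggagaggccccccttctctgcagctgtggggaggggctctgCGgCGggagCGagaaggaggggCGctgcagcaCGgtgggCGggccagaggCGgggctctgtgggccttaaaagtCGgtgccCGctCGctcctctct
Dazl: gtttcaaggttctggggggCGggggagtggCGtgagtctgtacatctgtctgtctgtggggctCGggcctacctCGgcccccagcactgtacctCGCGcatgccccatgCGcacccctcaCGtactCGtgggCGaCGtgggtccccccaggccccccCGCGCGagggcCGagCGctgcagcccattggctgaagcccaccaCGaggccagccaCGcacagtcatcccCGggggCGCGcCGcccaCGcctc
Olr1433: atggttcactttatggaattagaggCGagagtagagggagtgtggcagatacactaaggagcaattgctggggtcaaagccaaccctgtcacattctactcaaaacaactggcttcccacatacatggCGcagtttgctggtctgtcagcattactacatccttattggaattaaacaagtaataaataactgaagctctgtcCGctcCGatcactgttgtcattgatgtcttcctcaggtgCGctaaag
The Dazl window held 23 CGs, more than 86.2% of the 24206 promoters in that table. Mest had 15, Magel2 had 9 and Olr1433 had 5, against a median of 6. The islands counted below are those of the deposited table and not of these windows.

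The deposited mean signals come without read counts, and sequencing depth is unknown. Correlations across regions after median centring lay between 0.915 and 0.922 within the vehicle group, between 0.872 and 0.909 within the TAK-418 group, and between 0.880 and 0.942 between those groups. Control 1 stood apart: its intervals numbered 7416, against 14894 and 14699 in the other controls, and it correlated at 0.716 with each of them while they reached 0.890 with each other. It touches the comparison through the choice of regions, the shared estimate of spread and the split by control level used below. At H3K9Ac, a mark of active genes, the 7 neuron markers had a median percentile of 63.8 among listed genes, with a range from 25.8 to 92.5. The 5 choroid plexus markers had 18.2 and 3 genes of other tissues 23.0, the highest of them at 45.3. Markers of astrocytes had 39.5, oligodendrocytes 38.9, endothelium 32.6, striatum 30.1 and microglia 29.4.

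The overall amount of H3K9me3 did not differ between the groups beyond the spread of their libraries. The signal summed over the tested regions was 110066, 136755 and 102558 in the vehicle libraries and 152496, 95236 and 91180 in the TAK-418 libraries. TAK-418 library 1 held the most signal of all 9 libraries, while TAK-418 libraries 2 and 3 held less than any vehicle library. The ratio of the means was 0.970 (exact two-sided permutation test, p = 0.9, n = 3 against 3, where 0.1 is the smallest p possible). Called intervals at these regions numbered 21552, 23737 and 20684 with vehicle and 23732, 16093 and 17971 with TAK-418, with TAK-418 library 1 just inside the vehicle range and the other two below it. The ratio was 0.876 (exact p = 0.3), and without TAK-418 library 1 it was 0.774 (exact p = 0.1, the smallest possible there). An interval was called in all 6 compared libraries at 11228 regions. Of the 26084 tested regions, 369 had it in all 3 vehicle and no TAK-418 library, and 47 in all 3 TAK-418 and no vehicle library. The part that the fewer intervals of TAK-418 libraries 2 and 3 had in these counts was not tested.

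**Figure D1:**
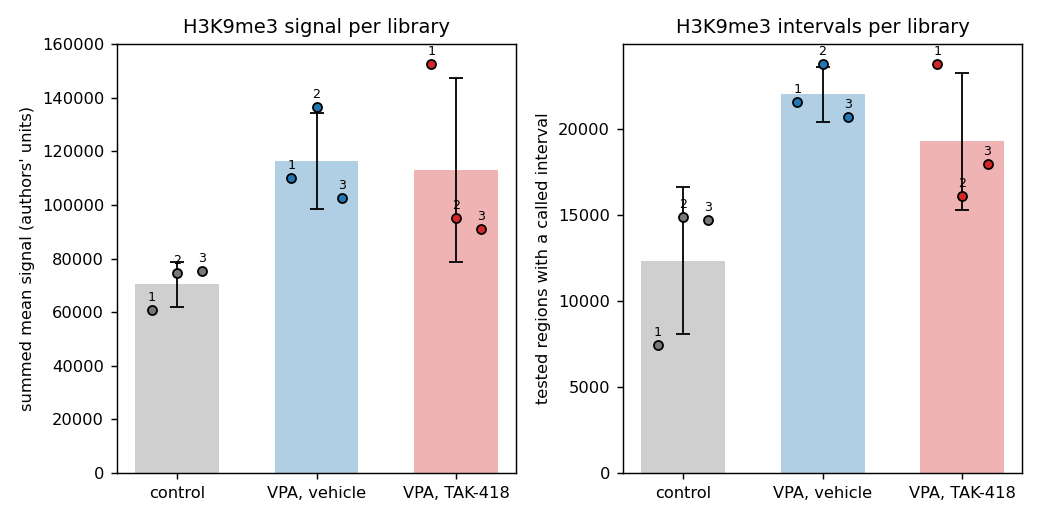
Summed H3K9me3 signal over the 26084 tested regions (left, authors' units) and number of those regions with a called interval (right) by library; numbered points are libraries, bars the group mean and error bars the SD of 3 libraries. TAK-418 library 1 reaches 152496 and lies above every vehicle library in signal, while TAK-418 libraries 2 and 3 lie below them in both panels.

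No region passed the threshold in the test of TAK-418 against vehicle. With limma on log2(signal + 1) and Benjamini-Hochberg adjustment, 0 of 26084 regions (0%) had an adjusted p under 0.05 as deposited, after median centring or after quantile normalization. The smallest adjusted p was 1.00 as deposited and 0.118 after centring. At an unadjusted p under 0.05 there were 128 regions as deposited, of which 25 (0.0958%) were higher and 103 (0.395%) lower with TAK-418. After centring there were 975, with 469 higher (1.8%) and 506 lower (1.94%), and after quantile normalization 642, with 339 higher (1.3%) and 303 lower (1.16%). The median difference was -0.03 as deposited and -0.01 after centring, and the middle 90% of centred differences ran from -0.24 to 0.19. The typical 95% interval of a region reached 0.43 to either side as deposited and 0.25 after centring. These intervals are not adjusted for the number of regions, and a call needed a larger difference. Centred differences of -0.97 and -0.71 at the 2 regions of smallest p were not called (limma adjusted p = 0.118 each). Leaving out TAK-418 library 1 gave 88 regions called as deposited, all lower with TAK-418, with a median length of 1599 bp; at 74 of these the library left out was within or above the vehicle range. After centring, the same omission gave 0.

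Few regions separated the groups completely as deposited, and more did after scaling. Complete separation of 3 libraries from 3, in either direction, has an exact two-sided permutation p of 0.1 at a given region. Many regions would therefore separate without any difference between the groups. As deposited, all 3 TAK-418 libraries lay above all 3 vehicle libraries at 42 regions (0.161%) and below them at 163 (0.625%). After centring the counts were 1170 (4.49%) and 1487 (5.7%), and after quantile normalization 1314 (5.04%) and 1224 (4.69%). The 163 lower regions had a median length of 2199 bp, and 45.4% were under 2000 bp, against 5599 bp and 8.63% of all tested regions. CpG islands were present in 16.0% of them, against 6.10% of all. The 1487 lower regions after centring were closer to the whole set, with a median length of 4999 bp, 14.5% under 2000 bp and islands in 6.52%. These are descriptions of a set chosen by its values.

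**Figure D2:**
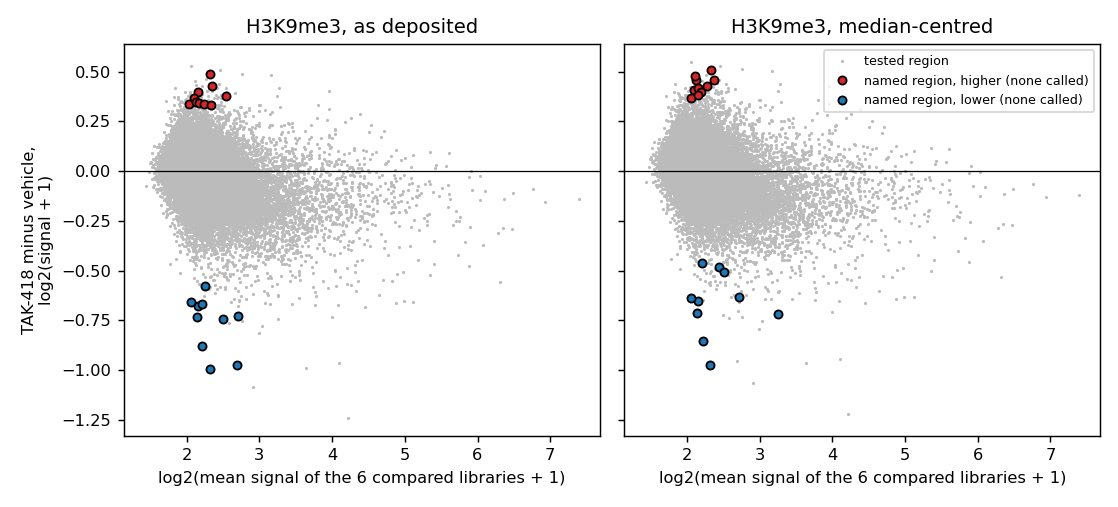
Difference in H3K9me3 between TAK-418 and vehicle on the log2(signal + 1) scale against the mean level of the 6 compared libraries, as deposited (left) and after median centring (right). Grey points are the 26084 tested regions and filled circles the 10 named regions in each direction, none of which was called; regions of high level lie mostly below 0.

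Strongly marked regions lay lower, relative to the weakly marked, in 2 of the 3 TAK-418 libraries. To keep the choice apart from the groups compared, regions were divided by their mean level in the control libraries, a split added after the values had been seen. In the weakest 25% the median centred difference was 0.04 and 65.6% of regions were above 0. From the 25th to the 50th percentile it was 0.01, and from the 50th to the 75th it was -0.02. From the 75th to the 95th percentile it was -0.07 with 27.4% above 0, and in the highest 1% (261 regions) it was -0.12 with 19.2% above 0. The gap between the highest 1% and the weakest 25% was 2.73, 2.86 and 2.66 log2 units with vehicle and 2.72, 2.49 and 2.53 with TAK-418, a difference of -0.17 (exact p = 0.2, and 0.2 adjusted over 5 such classes). TAK-418 library 1 was within the vehicle range and the other two were below it. Only for the 2 classes between the 25th and 75th percentiles did the groups separate, by -0.03 and -0.07 (exact p = 0.1 each). After quantile normalization, which makes the spread of every library equal, the medians of these classes lay between -0.02 and 0.02. The interquartile range of log2(signal + 1) within a library was 0.507 ± 0.020 with vehicle and 0.454 ± 0.063 with TAK-418 (SD, n = 3; exact p = 0.4).

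The regions with the smallest p for a lower level were short, and most had no listed gene. None was called in the comparison with vehicle. They are given as the regions of smallest p whose groups did not overlap and whose level was in the upper 75%. At chr5:36981800-36982599 the mean signal was 5.57, 6.88 and 4.35 with vehicle and 3.79, 2.24 and 1.25 with TAK-418. The centred difference was -0.97 ± 0.30 (95% interval; limma adjusted p = 0.118). At chr2:127461200-127462999 the signal was 4.29, 4.46 and 4.76 with vehicle and 3.02, 1.92 and 2.07 with TAK-418. Every TAK-418 library lay below the lowest vehicle library there, as deposited too, and no interval was called in any of them (difference -0.71 ± 0.23, adjusted p = 0.118). The control libraries at this region stood at 1.90, 2.19 and 2.32, beside the TAK-418 values as deposited, where all controls held less summed signal than the VPA libraries. After centring the controls lay between the groups. Vehicle minus control was then 0.31 (limma adjusted p = 0.356) and TAK-418 minus control -0.40 (limma adjusted p = 0.443). The control signal at the chr5 region was 3.44, 4.73 and 4.45, within reach of the vehicle libraries. Vehicle minus control there was -0.17 after centring (limma adjusted p = 0.607). TAK-418 minus control was -1.14 after centring (limma adjusted p = 0.0297) and -0.66 as deposited (limma adjusted p = 0.0349), a call under both scalings. The regions chr8:2475200-2476599, chr7:5274400-5275599 and chr6:111911000-111912999 followed, with centred differences of -0.86, -0.65 and -0.64 and an adjusted p of 0.383 each. No gene was listed for any of these 5.

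Of the 10 named lower regions after centring, 9 listed no gene, where unnamed gene models had been passed over. No gene was listed for 69.2% of all 1487 regions lower without overlap after centring, and for 65.7% of all tested regions. The named lower region with a gene lay 8872 bp upstream of Rps3, which encodes a protein of the small ribosomal subunit (chr1:170651200-170652599). Its signal was 6.93, 7.53 and 6.38 with vehicle, 6.20, 3.03 and 3.40 with TAK-418 and 2.62, 4.00 and 2.54 in controls. As deposited, TAK-418 library 1 was close to the lowest vehicle library and libraries 2 and 3 were at the level of controls. The centred difference was -0.63 ± 0.30 (adjusted p = 1.00). After centring, vehicle minus control was 0.49 (limma adjusted p = 0.356) and TAK-418 minus control -0.14 (limma adjusted p = 0.721). The lowest differences of all tested regions, -1.22 ± 1.47 inside the gene model LOC100909555 (chr1:13555800-13556199) and -1.07 ± 1.53 at chr16:30075200-30075599, were measured over 399 bp and had intervals wider than the difference itself.

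Among the 10 named regions higher after centring, 3 listed a gene, and the named regions higher as deposited added others. Upstream of Mtmr14, a lipid phosphatase gene (chr4:208483200-208486399, 7430 bp from the start), the signal was 2.38, 3.25 and 2.45 with vehicle and 5.33, 3.59 and 3.22 with TAK-418. As deposited the third TAK-418 library fell just under the highest vehicle library; after centring the groups did not overlap and the difference was 0.46 ± 0.19 (adjusted p = 0.501). An interval was called there in all 3 TAK-418 and in 0 vehicle libraries. Inside Ppp3cc, which encodes a catalytic subunit of the phosphatase calcineurin, the signal was 3.06, 2.73 and 2.64 with vehicle and 5.34, 3.66 and 3.27 with TAK-418 (0.42 ± 0.22, adjusted p = 1.00). All TAK-418 libraries lay above all vehicle libraries at this region. Regions inside Ell2, a transcription elongation factor gene, inside Lpp, which encodes a focal adhesion protein, inside Cacna2d1, which encodes an auxiliary subunit of calcium channels, and inside Tenm3, a teneurin gene of neuronal wiring, had centred differences of 0.39, 0.45, 0.36 and 0.36. In each of them TAK-418 library 1 was the highest library. As deposited, the controls were below the vehicle libraries at Ppp3cc (2.13, 2.27 and 2.39) and partly overlapped them at Tenm3 (2.35, 3.07 and 3.71). After centring, vehicle minus control was -0.27 at Ppp3cc and -0.34 at Tenm3, neither called.

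**Figure D3:**
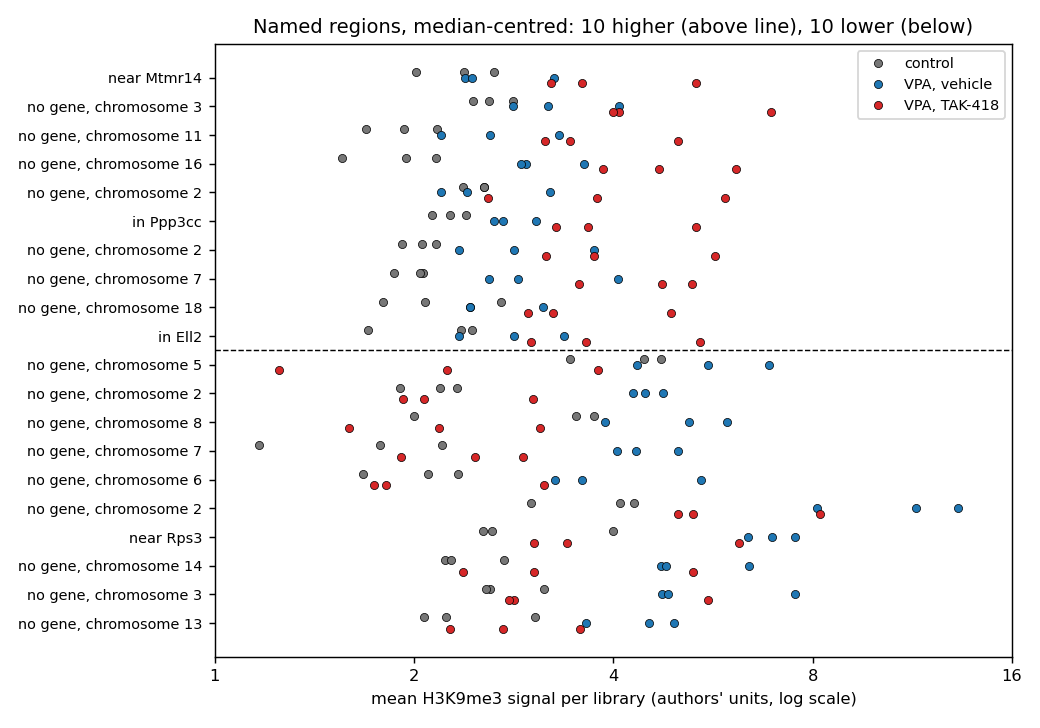
Mean H3K9me3 signal per library (log axis, authors' units) at the 10 regions of smallest p in each direction after median centring, with no region called. At the region on chromosome 2 with vehicle values of 4.29 to 4.76 the TAK-418 libraries lie from 1.92 to 3.02; in the upper rows the TAK-418 library farthest to the right is library 1.

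Across CpG island classes the comparison gave no separation. Regions with islands had less H3K9me3 than island-free regions in every library. The gap in median log2(signal + 1) was -0.21, -0.39 and -0.26 with vehicle and -0.46, -0.16 and -0.29 with TAK-418. The TAK-418 libraries enclosed the whole vehicle range, and the widest gaps belonged to the libraries with the most signal, TAK-418 library 1 and vehicle library 2. The difference between groups was -0.02 (exact two-sided permutation p = 0.9). The gap widened from the 1004 regions with 1 island (-0.20 ± 0.07 with vehicle and -0.22 ± 0.12 with TAK-418; SD, n = 3) to the 259 regions with 2 (-0.38 ± 0.10 and -0.39 ± 0.18), and then stayed level. The 125 regions with 3 islands were at -0.36 ± 0.12 and -0.38 ± 0.19, and the 204 with 4 or more at -0.36 ± 0.11 and -0.40 ± 0.20. Each class had an exact p of 0.9, also after adjustment over the 4 classes.

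Island regions differed from the rest in ways other than CpG content. Their median length was 19599 bp with 1 island and 86399 bp with 4 or more, against 5399 bp without. An H3K4me3 interval in at least 3 libraries was present at 73.6% of the regions with 1 island and at 1.65% of those without. The H3K27me3 shares were 59.5% and 8.43%. Among regions in the middle range of lengths, 175 with an island and 13136 without, the group difference in the gap was -0.10 (exact p = 0.2). Among regions with no H3K4me3 interval it was -0.07 (exact p = 0.3). Of the 1592 island regions 0 were called, as in the island-free class. After centring, 75 of the 1004 regions with 1 island (7.47%) were lower without overlap and 8 were higher, against 5.7% and 4.49% of all tested regions. The lower shares with 2, 3 and 4 or more islands were 3.86%, 4.8% and 2.94%, and over all island regions the count was 97 of 1592.

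**Figure D4:**
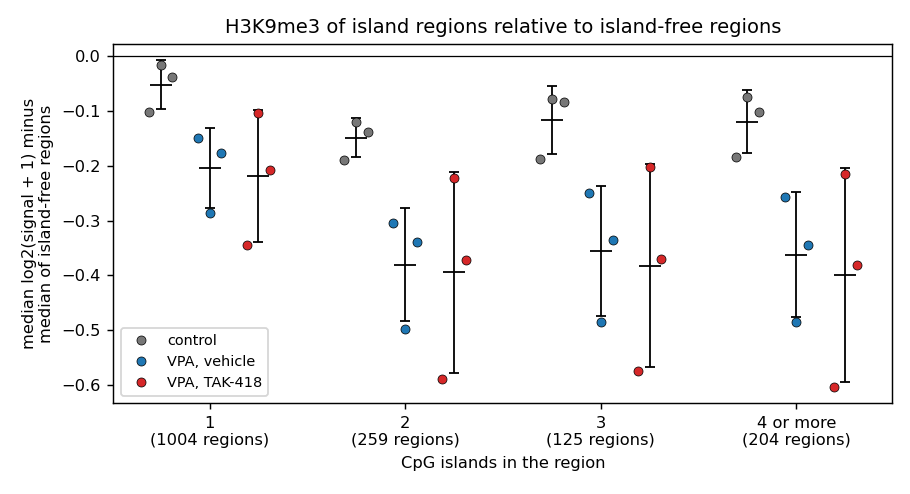
Median H3K9me3 of regions with 1, 2, 3 or 4 and more CpG islands minus the median of island-free regions, in log2(signal + 1), by library; points are libraries, horizontal bars group means and error bars the SD of 3 libraries. The TAK-418 libraries spread wider than the vehicle libraries in all 4 classes and enclose them, with group means of -0.20 and -0.22 for 1 island.

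Classes by position relative to genes did not separate the groups either. Relative to regions with no listed gene, the group difference was 0.02 for the 4376 regions within a gene (exact p = 0.5), -0.02 for the 2012 downstream of one (exact p = 0.2) and within 0.01 of 0 for the 2550 upstream and the 3790 with a listed promoter (adjusted p = 0.80 for each of the 4). The 482 tested regions on the X chromosome were examined after the values had been seen. Their median minus that of the other chromosomes was -0.06, -0.12 and -0.10 log2 units with vehicle and -0.15, -0.16 and -0.16 with TAK-418. All 3 TAK-418 libraries were lower than all 3 vehicle libraries (exact p = 0.1, the smallest possible, and 0.70 adjusted over 21 chromosomes). Chromosomes 6 and 11 separated in the other direction with smaller differences. The X gap in control 1 was -0.16, and in controls 2 and 3 it was -0.01. Without the threshold on intervals the X difference shrank from -0.06 to -0.01.

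Regions of imprinted genes were marked above the typical tested region. Imprinted genes are expressed from the maternal or the paternal copy, and H3K9me3 at their control regions differs between the copies. These libraries do not tell the copies apart. Of 80 regions listing a member, 36 were tested, and their median signal was 5.17, 5.14 and 4.24 with vehicle and 5.51, 3.88 and 3.37 with TAK-418. For all tested regions these medians were 3.44, 4.29 and 3.24, and 4.83, 3.11 and 2.96. None of the 36 was called. The median centred difference was -0.11, beside -0.01 over all tested regions, and 9 of 36 were above 0. As deposited it was -0.13 with 5 above 0, and after quantile normalization -0.05 with 11 above 0. After centring, 5 of the 36 (13.9%) were lower without overlap and 0 were higher, against 5.7% and 4.49% of all; after quantile normalization 2 were lower without overlap. By library, TAK-418 library 1 lay below all vehicle libraries at 25 of the 36 regions after centring, and libraries 2 and 3 did so at 8 and 16. The level of these regions falls where the strongly marked regions of the whole set lay below 0, although in that pattern library 1 stayed within the vehicle range at the highest levels; the part of level in the result was not tested.

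The imprinted regions with the lowest differences held islands. At Gnas, the gene of a stimulatory G protein subunit, a region with 3 islands at one of its starts (chr3:178433800-178444799) had 18.2, 15.1 and 12.9 with vehicle and 12.4, 8.76 and 8.28 with TAK-418. All TAK-418 libraries lay below the vehicle libraries, as deposited and after centring, where the difference was -0.59 ± 0.75. The controls stood at 3.33, 13.5 and 14.6, the first being the library that stood apart. At Magel2, whose promoter is printed above and which encodes a regulator of ubiquitin ligases (chr1:124150000-124160799), the signal was 9.20, 7.41 and 7.88 with vehicle and 7.74, 4.26 and 4.54 with TAK-418. TAK-418 library 1 was between the vehicle libraries and the other two were far below (-0.50 ± 0.60 after centring).

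Mest encodes a hydrolase-like protein expressed from the paternal copy, and its region (chr4:57810400-57813199) had 14.6, 11.7 and 8.50 with vehicle and 9.92, 8.56 and 5.32 with TAK-418. These groups overlapped (-0.48 ± 0.63 after centring). Plagl1, a zinc finger gene, had 9.40, 5.77 and 5.78 against 5.07, 4.51 and 3.50, without overlap as deposited but with overlap after centring (-0.53 ± 0.66). Igf2r, the receptor that clears IGF2, had a region 29242 bp into the gene with 7.36, 7.22 and 6.77 against 7.19, 4.87 and 4.31 (-0.33 ± 0.40). Each of these intervals included 0. The 21 imprinted regions with islands had a median centred difference of -0.13 (4 above 0) and the 15 without had -0.03 (5 above 0). An H3K4me3 interval in at least 3 libraries accompanied 19 of the 21. The H3K4me3 signal at the Magel2 region was 7.02 ± 1.30 with vehicle and 10.5 ± 3.57 with TAK-418 (SD, n = 3, limma adjusted p = 0.531). TAK-418 library 2, at 6.49, was within the vehicle range. The difference was 0.47 as deposited, beside a median of 0.20 over all H3K4me3 regions, and 0.26 after centring. H3K9Ac at the same region was 5.96 ± 2.18 with vehicle and 3.59 ± 0.62 with TAK-418 (limma adjusted p = 0.0859 as deposited and 0.273 after centring). Other imprinted genes varied in H3K9Ac. It was called lower at Ndn under both scalings (limma adjusted p = 0.0308 as deposited and 0.0155 after centring). At Peg12 it was called lower as deposited only (limma adjusted p = 0.0307, and 0.309 after centring). At Igf2r and Snrpn it was called under neither scaling. At the other end of the list, a region inside Grb10 had 2.39, 2.90 and 2.66 against 3.17, 2.96 and 2.58, a centred difference of 0.12.

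**Figure D5:**
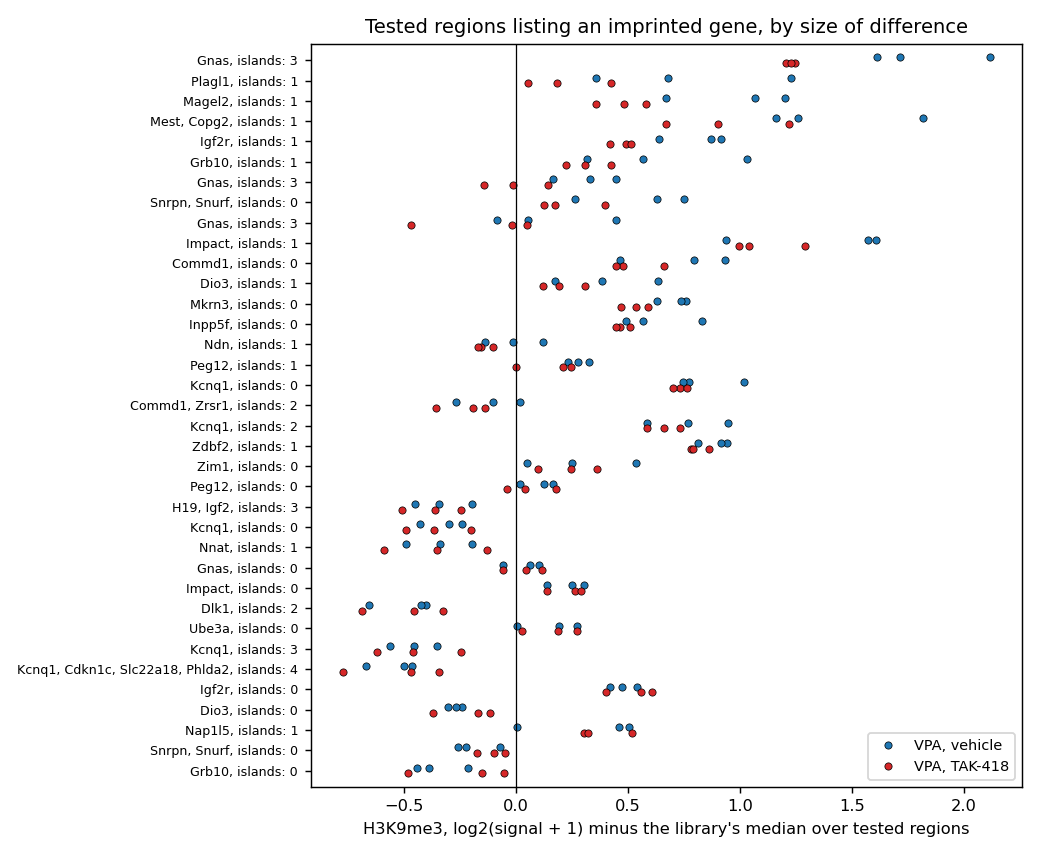
H3K9me3 at the 36 tested regions listing an imprinted gene, as log2(signal + 1) minus the library's median over tested regions, one point per vehicle or TAK-418 library; regions are ordered by the centred difference and labelled with their islands. The Gnas region in the top row has 3 TAK-418 libraries left of all vehicle libraries (difference -0.59), and toward the bottom the groups mix.

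Hox genes, the patterning genes of the body axis, are Polycomb targets, and their 8 tested regions all carried H3K27me3 and at least 3 islands. The median H3K9me3 signal there was 3.31, 3.29 and 3.03 with vehicle and 3.15, 2.65 and 2.21 with TAK-418. For all tested regions the medians were higher, at 3.44, 4.29 and 3.24, and 4.83, 3.11 and 2.96. For tested regions with 3 islands they were lower, at 2.77, 2.83 and 2.40, and 2.96, 2.60 and 2.10. In controls 2 and 3 the Hox regions, at 2.66 and 2.56, lay above all tested regions, at 2.38 and 2.40. The centred difference was below 0 at 8 of 8 regions, as deposited and after quantile normalization too, with a median of -0.16 and 0 called. After centring, 13822 of all 26084 tested regions were below 0. Among tested regions with 3 islands 80 of 125 were, and among those with 4 or more 141 of 204. The region over Hoxd13, Hoxd12 and Hoxd10 (chr3:68067000-68092799) had 5.74, 5.29 and 4.53 against 5.09, 3.81 and 3.00 (-0.31 ± 0.32). It was the only 1 of the 8 whose groups did not overlap after centring, where 5.7% of all tested regions were lower without overlap. TAK-418 library 1 lay below every vehicle library at all 8 regions after centring, while libraries 2 and 3 did so at 1 and 2 of them. The 8 regions come from 4 gene clusters and are not independent.

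Clustered protocadherins, adhesion molecules that give neurons their surface identity, were marked more than the typical tested region. The median over their 11 tested regions was 6.38, 7.34 and 5.71 with vehicle and 8.40, 4.64 and 4.51 with TAK-418. The region over the gamma cluster (chr18:30507200-30611999, 20 islands) reached 18.4, 20.8 and 15.5 against 23.1, 13.4 and 12.2. In both, TAK-418 library 1 was the highest of the 6 and the others were the lowest. The median centred difference was -0.09 with 2 of 11 above 0; after quantile normalization it was -0.01 with 5 above 0, and 0 were called.

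Receptor clusters of the nose gave the longest lists, and reads from their near-identical copies may be shared between them. Of 1012 regions listing an olfactory receptor gene 734 were tested, with a median centred difference of -0.02. Without overlap, 25 were higher and 49 lower after centring (3.41% and 6.68%, against 4.49% and 5.7% of all tested regions), and 1 was higher and 0 were lower as deposited. The smallest p belonged to a region 7370 bp upstream of Olr982 (chr7:4210600-4216999), with 1.61, 2.70 and 1.91 against 3.83, 2.60 and 2.84 and a difference of 0.44 ± 0.22 (limma adjusted p = 1.00). The region beside Olr1433 had 8.87, 9.28 and 6.62 against 9.14, 4.88 and 5.61 (-0.30 ± 0.41). Vomeronasal receptors serve pheromone detection. Of their 354 tested regions, 15 were higher and 16 lower without overlap after centring (4.24% and 4.52%, close to the shares of all tested regions), around a median of -0.01. A region inside the gene models of Vom2r38 and Vom2r37, at 15.1, 23.6 and 15.6 against 17.8, 9.93 and 10.4, had a difference of -0.47 ± 0.38. The 172 regions of zinc finger genes, many of which encode repressors that recruit H3K9 methylation, had a median of -0.01 and the 98 of cytochrome P450 genes, the oxidases of drug and steroid metabolism, -0.05 (-0.01 after quantile normalization). No region in these 4 lists was called.

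Ribosomal protein genes had 25 tested regions with a median of -0.01 after centring and 0.00 after quantile normalization. After centring 4 were lower without overlap and 0 higher, against 5.7% and 4.49% of all tested regions; as deposited 1 was lower. Besides Rps3 they included a region downstream of Rps26 (5.31, 5.11 and 4.73 against 5.48, 3.61 and 3.23; -0.25 ± 0.23). Lists of 13 to 28 tested regions for keratins, MHC genes, immunoglobulin and serpin clusters, germline genes, the H3K9 methylation machinery and Polycomb subunits had medians between -0.04 and 0.00 after centring. At Dazl, an RNA-binding protein gene of germ cells whose promoter is printed above, the island region at the start had 7.13, 4.66 and 5.53 with vehicle and 3.67, 4.89 and 2.75 with TAK-418. TAK-418 library 2 lay among the vehicle libraries and the interval spanned 0 (-0.49 ± 0.64).

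The interval threshold was passed by 35.8% of all regions of the table. Among regions listing genes of neuronal function it was passed by 33 of 202 for synaptic genes, 44 of 199 for receptors for glutamate and GABA and 21 of 175 for autism risk genes. By gene, 18 of 40, 20 of 40 and 11 of 33 had at least 1 tested region, and 0 regions were called in any list. The median centred difference of each list was within 0.01 of 0, with 16 of 33, 23 of 44 and 11 of 21 regions above 0. After centring, 4 of the 44 receptor regions were higher and 1 was lower without overlap, and 3 of the 21 autism risk regions were higher and 0 lower, against 4.49% and 5.7% of all tested regions. The lower one was inside Gria4, an AMPA receptor subunit gene, with 3.74, 4.75 and 3.71 against 3.73, 2.69 and 2.57 (chr8:1840800-1843199; -0.33 ± 0.21). A region inside Gabrg3, a GABA receptor subunit gene, had 2.85, 3.56 and 2.64 against 5.28, 3.36 and 3.17 (0.30 ± 0.20). The limma adjusted p of both was 1.00.

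The drug's target and its partners lay mostly outside the mark. The Kdm1a promoter region (chr5:158726800-158732599) had an H3K9me3 interval in 1 of 9 libraries and was not tested; its signal was 2.25 ± 0.41 with vehicle and 2.59 ± 0.51 with TAK-418 (SD, n = 3). Of 27 regions listing a gene of the LSD1 complex 3 were tested, with differences of -0.05 at Hmg20b, 0.02 at Rcor3 and -0.01 at Gfi1. None of the 27 histone deacetylase regions and none of the 18 astrocyte marker regions passed the threshold on intervals. Atf7ip, the partner of SETDB1, had the 3 smallest p of the H3K9 methylation machinery, with centred differences of 0.15, 0.12 and 0.14 and intervals that included 0.

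The other marks were compared at the same regions. H3K4me3 intervals passed the same threshold at 1664 of the H3K9me3 regions, and 6 of these (0.361%) were called higher with TAK-418 as deposited, against 0.224% of all H3K4me3 regions; after centring 0 were called, shared or overall. H3K9Ac shared 1983 regions. As deposited 94 of these (4.74%) were called lower and 0 higher, against 9.56% of all H3K9Ac regions lower and 0.017% higher; after centring 162 (8.17%) were higher and 223 (11.2%) lower, against 13.7% and 17.8%. H3K27me3 shared 3181, of which 0 were called (limma; 0% of all). At the shared regions the median change of H3K9me3 itself was -0.03 beside H3K4me3, -0.02 beside H3K9Ac and -0.03 beside H3K27me3, as deposited. At the H3K9Ac regions that also carried H3K9me3, the H3K9Ac gap between island and island-free regions was 0.79, 0.74 and 0.71 with vehicle and 0.48, 0.58 and 0.51 with TAK-418. All TAK-418 libraries lay below all vehicle libraries in that mark (exact p = 0.1), whereas the H3K9me3 libraries overlapped. The fall was not particular to regions with H3K9me3. Over all H3K9Ac regions the group difference in this gap was -0.30 (exact p = 0.1), beside -0.22 at the shared regions.

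Set beside the controls, both VPA groups carried more signal as deposited. These comparisons share the control libraries, and each also shares its VPA group with the main comparison. Of the 26084 regions, 14664 (56.2%) were called higher and 0 lower in the vehicle group against controls, and 10308 (39.5%) higher and 1 (0.00383%) lower in the TAK-418 group against controls (limma, Benjamini-Hochberg). After centring the vehicle comparison had 0 called and the TAK-418 comparison 1, lower. Under both scalings the region called lower in the TAK-418 comparison was chr5:36981800-36982599, named above. At the 36 imprinted regions 6 were called higher against controls in the vehicle group and 3 in the TAK-418 group, as deposited. Summed signal in the controls was 60798, 74757 and 75532, below all 6 VPA libraries. How libraries were scaled was not given in the sources used here, so the shift in level cannot be told apart from a difference in scaling.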

How the data were processed

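H3K9me3 ChIP-seq in frozen rat cortex used 30 ug of chromatin per immunoprecipitation, per the labels' protocols. BWA 0.7.12 and build rn5 are named per the submitters' processing notes; the peak caller and library scaling were not given in the sources used here. The authors deposited the mean and highest signal of each merged region and whether an interval was called, per the file headers; 0 library columns were left unmatched. Signal was transformed as log2(mean signal + 1) and fitted over all tested regions with limma 3.58.1 (R 4.3.3; mean-dependent prior, robust estimation, 9 libraries), as deposited and after subtracting each library's median. Differences are TAK-418 minus vehicle on that scale, which understates changes at weak regions. The fitting code was tested on simulated data. Library summaries were compared by exact permutation. Named regions are the 10 per direction and scaling with the smallest p among those without overlap between groups and in the upper 75% by level, plus each list's 3 members of smallest p. Unnamed gene models were passed over. The Plagl1, Mest, Grb10, LOC100909555 and Olr1433 regions, the strongest Gnas region and the gamma protocadherin region were chosen after their values were seen. Regions, lists and members were chosen with earlier results of these data known. The mouse table and the pooled inputs were not used here.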

Additional observations from a re-analysis of the deposited data

How the results depend on the processing

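With values as deposited, the count of regions called was 0 under 7 alternatives (other pseudocounts of 0.1 and 5, an interval in all 6 compared libraries, only those 6 in the fit, the replicate block, the highest signal, limma without trend), was 2 with no filter on low values, and ranged from 0 to 88 when replicates were left out, 88 without TAK-418 replicate 1. After centring it was 1 with a pseudocount of 5, the region chr5:36981800-36982599 named above, and 0 otherwise. Replicate numbers did not pair the libraries: same-numbered vehicle and TAK-418 libraries correlated at -0.12, -0.24 and 0.08 in their deviations from the group means. With the replicate block 0 regions were called under both scalings (69 and 821 at an unadjusted p under 0.05; smallest adjusted p 0.0551 after centring), and the island difference was -0.02 (exact p = 0.75). The ratio of summed signal was 1.00 over all regions of the table and ranged from 0.800 to 1.06 with replicates left out, that of called intervals from 0.774 to 0.948. The island difference was 0.0189 with no filter on low values and ranged from -0.0902 to 0.0628 with replicates left out; the cause was not tested. The X difference, added after seeing the data, ranged from -0.08 to -0.04 with replicates left out and was -0.01 with no filter on low values and -0.10 with the highest signal. For the named regions, 0 of 500 refitted differences changed sign and 9 passed the threshold, all as deposited without TAK-418 replicate 1. These regions were chosen for groups that did not overlap, which fixes the sign when a library is left out. The unchanged sign is therefore no separate evidence. With 3 libraries a group and unknown depth, the typical 95% interval of a region reached 0.25 to either side after centring, unadjusted for the number of regions. A call needed a larger difference, and a centred difference of -0.97 was not called (limma adjusted p = 0.118).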
